A study of Mus musculus with 6 samples.

Results

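The 10 genes described here encode the kinase CDK9, its cyclin partners and some proteins of the complexes that act with it. These are the inhibitory complex that restrains CDK9 and the super elongation complex (SEC) that carries it to genes. The genes are Cdk9, Ccnt1, Ccnt2, Hexim1, Larp7, Mepce, Aff1, Aff4, Ell and Ell2. They were taken by name, as 10 of 21938 protein-coding genes in the annotation, and their control H3K27ac peaks were sought in promoter windows of ±1 kb around the TSS of every isoform, elsewhere in the gene body, and outside the gene within 50 kb of its ends. H3K27ac, the acetylation of lysine 27 of histone H3, is a mark of active promoters and enhancers, and a promoter window that a peak overlapped is called marked. The list does not tell whether a member without a listed peak lacked the mark or had a signal under the limits the authors set.

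The peaks came from a ChIP-seq experiment in E14 (E14Tg2A) cells, a single line of mouse embryonic stem cells (mESCs) grown with LIF and inhibitors of MEK and GSK3, whose labels also name a Cre transgene at Rosa26 and a puromycin resistance gene at Oct4. There were 2 control replicates that received the solvent DMSO, 2 replicates with 100 nM NVP-2, an inhibitor of CDK9, and 2 with 800 nM actinomycin D (ActD), a DNA intercalator that blocks RNA polymerases. Treatments lasted 120 min, and chromatin of the human HEK293T line was added to all samples as a reference. The values below come only from 1 list of 22973 peaks in control cells that pools both control replicates, so they have no replicate error, the depth behind a peak cannot be read from them, no test was made, and cells treated with NVP-2 or ActD were not analysed here. In this list the promoters of Pou5f1, Sox2, Nanog, Esrrb and Zfp42, defining genes of mESCs, were marked in 5 of 5 cases, and those of the lineage genes Gata4, Sox17, Cdx2, Pax6 and T in 1 of 5, that of Gata4.

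RNA polymerase II pauses shortly after it starts, and its release into the gene needs the kinase complex P-TEFb, which consists of CDK9 and cyclin T1 or T2. Much of P-TEFb is held inactive on the 7SK RNA by HEXIM1, with LARP7 and the capping enzyme MEPCE keeping that RNA stable. Active P-TEFb joins the SEC, in which AFF1 or AFF4 serves as the scaffold and an ELL protein raises the elongation rate of the polymerase.

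Of the 10 members, 9 had an H3K27ac peak at a promoter window, against 51.9% of all protein-coding genes. The exception was Cdk9, the kinase itself. A peak covered the reference TSS, which is that of the longest protein-coding isoform, in 7 members, against 44.3% of protein-coding genes. At least 2 separate promoter peaks were found in 3 members (Ccnt1, Larp7 and Aff1), against 5.24%. These counts grow with the number of annotated transcripts, and 7 members have 5 or more. Of these 7, 6 had a promoter peak and 2 had at least 2, against 75% and 11.1% of the 8639 protein-coding genes with 5 or more transcripts. With windows of protein-coding isoforms only, no member had 2 promoter peaks, against 2.73% of protein-coding genes. In the gene body away from promoter windows, 3 members (Aff1, Ell and Ell2) had a peak, against 17.4%, and outside the gene within 50 kb all 10 had one, against 67.6%. The count for the gene body was 6 members when peaks were placed by their midpoint, against 21.1%, and 5 when only the windows of the longest isoform were taken away, against 22.2%. Together there were 13 promoter peaks, 4 peaks in gene bodies and 35 peaks outside the genes. The members had a median length of 33.1 kb and all protein-coding genes one of 17.4 kb.

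**Figure D1:**
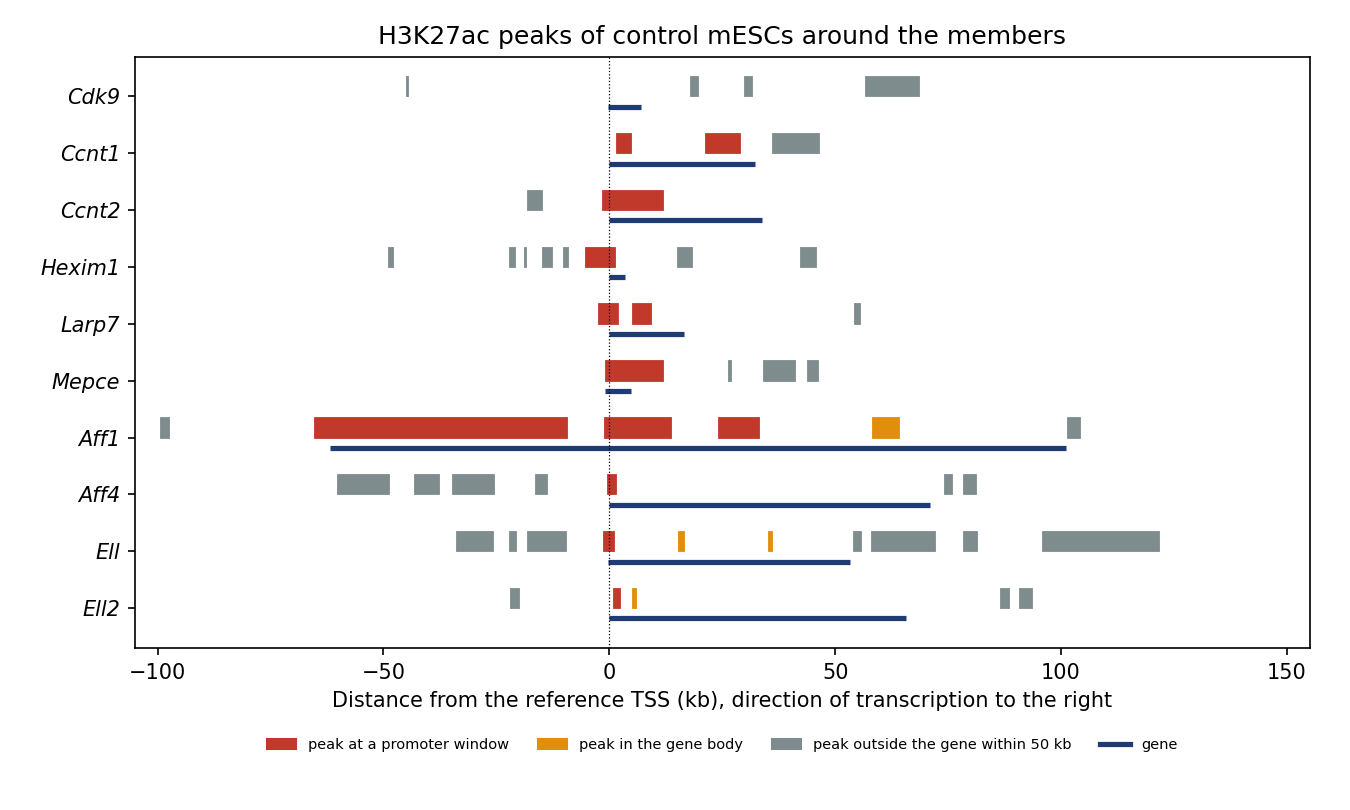
Position of every control H3K27ac peak at the 10 members, in kb from the reference TSS, with transcription running to the right. Boxes are peaks at promoter windows (red), in the gene body (orange) and outside the gene within 50 kb (grey), and blue lines are genes. Cdk9 has grey boxes only, whereas the other 9 members have at least 1 red box, and the red box of 56.1 kb upstream of the coding TSS of Aff1 exceeds all others.

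Cdk9 (ENSMUSG00000009555.16) lies on the minus strand at chr2:32705784-32713076 (mm10). It has 9 annotated transcripts, 3 of them protein-coding, and none of their windows was marked. The nearest peak lay between 14.7 kb from the most downstream TSS and 18.1 kb from the most upstream one, so that no choice of isoform brings a peak within the window. Genes with many annotated transcripts have more windows, and of the 719 protein-coding genes with 9 transcripts 78.9% were marked, and Cdk9 was among the 152 without a promoter peak. The gap without peaks around Cdk9 ran over 62.3 kb at chr2:32694985-32757265. This gap was wider than 70.7% of the 22952 gaps between neighbouring peaks, whose median was 26.7 kb.

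That gap holds the reference TSS of 5 protein-coding genes: Cdk9, Fpgs, which encodes folylpolyglutamate synthase, Sh2d3c, an adaptor of integrin and receptor signalling, 6330409D20Rik, and Tor2a, a torsin ATPase. Fpgs and Tor2a were each marked at another window of theirs or at the edge of the gap, and Cdk9, Sh2d3c and 6330409D20Rik were not marked. Within 50 kb of Cdk9 there were 4 peaks. The closest, of 1841 bp, began 10.8 kb beyond the 3′ end of the gene at a promoter window of Fpgs, and a peak of 1827 bp lay 22.8 kb away over Fpgs and Eng at no promoter window. A peak of 11859 bp at the promoter of Eng, the TGF-β co-receptor endoglin, lay 49.6 kb away on the same side. Upstream, a peak of 559 bp lay 44.2 kb away at Tor2a. Peaks covered 4.27% of Cdk9 and its 50 kb on each side, close to the median of 3.91% for protein-coding genes.

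The sequence just upstream of Cdk9 is rich in CpG, as is that of members with a peak. Shown are the first 150 bases upstream of the gene that touch no exon of GENCODE or RefSeq, for Cdk9 without a peak and for Aff4 and Hexim1 with one, with CpG in capitals. They were read from GRCm38.p6 at chr2:32713077-32713226 (minus strand), chr11:53350490-53350639 (plus) and chr11:103116081-103116230 (plus).
Cdk9 upstream: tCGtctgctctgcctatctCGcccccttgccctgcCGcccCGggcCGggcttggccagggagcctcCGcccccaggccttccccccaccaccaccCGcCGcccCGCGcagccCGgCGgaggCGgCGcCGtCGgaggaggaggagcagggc
Aff4 upstream: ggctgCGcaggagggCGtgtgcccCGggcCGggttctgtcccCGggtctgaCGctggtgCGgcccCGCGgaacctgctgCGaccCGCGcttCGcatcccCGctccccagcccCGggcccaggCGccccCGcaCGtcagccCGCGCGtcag
Hexim1 upstream: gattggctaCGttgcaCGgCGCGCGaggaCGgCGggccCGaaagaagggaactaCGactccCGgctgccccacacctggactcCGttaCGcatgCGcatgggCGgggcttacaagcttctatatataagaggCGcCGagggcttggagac
The Cdk9 stretch holds 16 CpG at a GC content of 79.3%, with an observed to expected ratio of 0.7. In the Aff4 stretch there are 21 CpG at the same GC content and a ratio of 0.901, and in the Hexim1 stretch 16 CpG at a GC content of 62.7% and a ratio of 1.09. The stretch of Cdk9 lies in no peak, and those of Aff4 and Hexim1 lie in their promoter peaks.

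RefSeq promoter windows, from 250 bases before the start to 50 after it on the same build, were matched for 9 members, with 10 windows since Aff1 has a pair of starts. No entry was matched for Mepce. A peak lay within 1 kb of the start in 9 of these 10 windows, against 10638 of 21263 windows of protein-coding genes, a share of 50%. The window of Cdk9 had a GC content of 78.3%, higher than in 97.7% of all windows, and an observed to expected CpG ratio of 0.854, higher than in 78.1%. Of 441 windows with GC content and CpG ratio at least those of Cdk9, 81.0% were marked, and the 84 unmarked windows belong to 81 genes. CpG ratios of the marked member windows ran from 0.788 for the second start of Aff1 to 1.22 for Ccnt1, on both sides of the Cdk9 value. Over all windows the median ratio was 0.791 where a peak was near and 0.252 where none was.

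**Figure D2:**
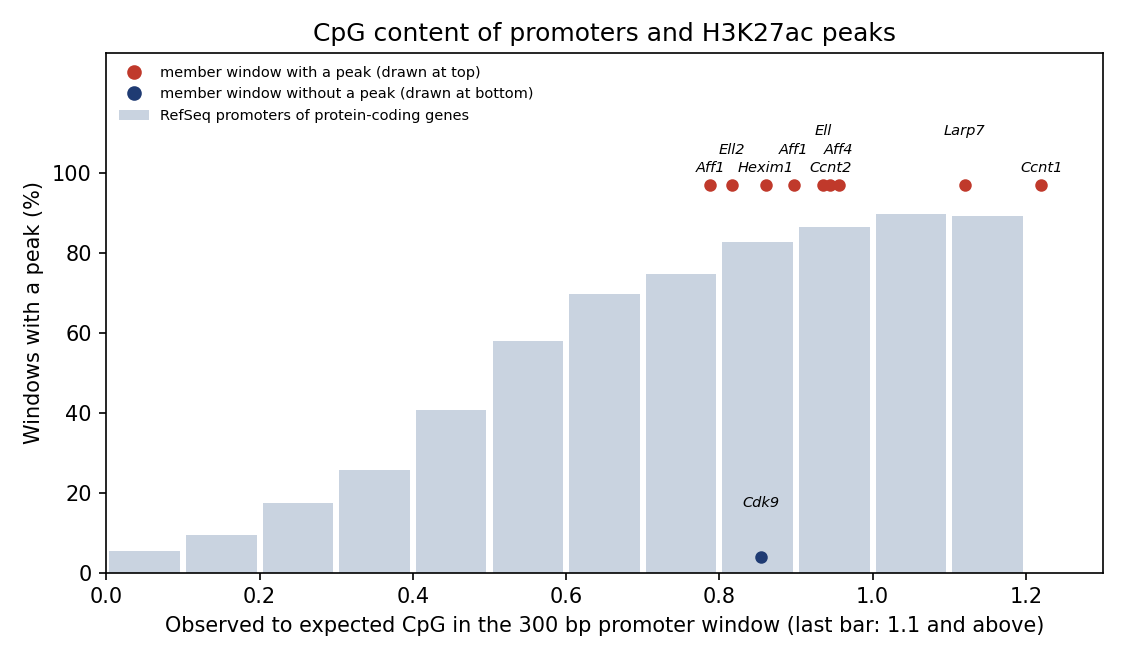
Bars show the share of RefSeq promoter windows of protein-coding genes with an H3K27ac peak within 1 kb of the start, by the observed to expected CpG ratio of the window. The share runs from 5.45% in the lowest bin to 89.7% in the bin from 1.0 to 1.1. Points mark the 10 member windows at their CpG ratio, at the top where a peak was found and at the bottom for Cdk9, which stands in the bin from 0.8 to 0.9 with 82.7% marked.

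A pair of microRNA genes also lies in the unmarked start region of Cdk9. The base of Mir2861 nearest to the reference TSS lies 23 bases upstream of it and that of Mir3960 116 bases, both genes being on the strand of Cdk9. RefSeq gives the mature miR-2861 (chr2:32712819-32712837, minus strand), printed with its seed, bases 2 to 8, in capitals because it shares the GC-rich start of Cdk9.
mmu-miR-2861: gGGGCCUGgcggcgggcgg
Neither microRNA gene lay in a peak.

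The cyclin T genes, whose products bind and activate CDK9, were both marked, in different ways. Ccnt1 (ENSMUSG00000011960.12, chr15:98538689-98570923, minus strand) had promoter peaks at 7 of its 9 transcripts but at only 1 of its 2 protein-coding transcripts. The protein-coding isoform that starts farthest upstream, at the reference TSS, had its TSS 1.41 kb from the nearest peak and was unmarked, whereas the TSS of the other protein-coding isoform, 3287 bp further downstream, lay inside that peak. This first peak had 3468 bp and was wider than 67.0% of the 10929 peaks at protein-coding promoters, whose median width was 2107 bp with quartiles of 1493 and 4616 bp. It also covered most of the antisense gene 9330020H09Rik, and the list does not tell which strand's promoter a peak belongs to. The second peak had 7801 bp, was wider than 86.4% of promoter peaks, and ran from 21.2 to 29.0 kb downstream of the reference TSS over exons 7 to 10. It counts as a promoter peak only through the starts of 2 transcripts that are not protein-coding.

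Ccnt2 (ENSMUSG00000026349.14, chr1:127774164-127808061, plus strand) had a single promoter peak of 13597 bp, wider than 94.2% of promoter peaks. It reached 1702 bp upstream and 11894 bp downstream of the reference TSS, where the medians over protein-coding genes with a covered TSS were 905 and 1207 bp. A single TSS serves 6 of the 7 transcripts, both protein-coding ones included, and the start of the remaining transcript was 10.5 kb away from the peak. Peaks covered similar shares of the cyclin genes, 35.0% of Ccnt1 and 35.1% of Ccnt2, against a median of 9.65% among protein-coding genes with a promoter peak. Each had 1 peak outside the gene within 50 kb, at the promoter of Kansl2 3.78 kb downstream of Ccnt1 and at that of Acmsd 14.9 kb upstream of Ccnt2.

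**Figure D3:**
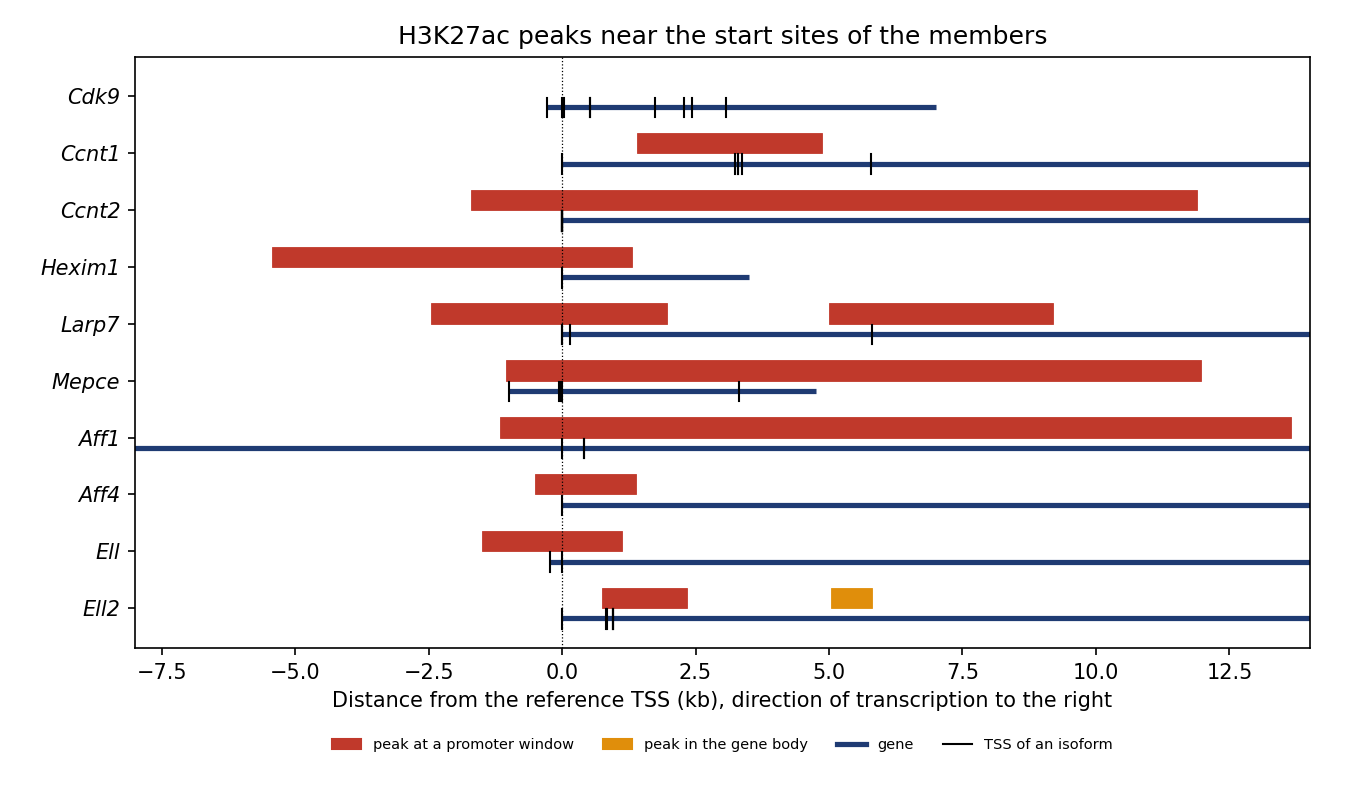
Start regions of the 10 members on a scale of kb from the reference TSS, with transcription to the right. Red boxes are peaks at promoter windows, orange boxes peaks in the gene body, blue lines genes and black ticks the TSS of isoforms. No tick of Cdk9 lies near a box, the peaks of Ccnt1 and Ell2 begin 1.41 and 0.739 kb downstream of the reference TSS, and those of Ccnt2, Mepce and Aff1 reach at least 11894 bp downstream.

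All 3 members that encode proteins of the 7SK complex were marked at the reference TSS. Hexim1 (ENSMUSG00000048878.6, chr11:103116231-103119725, plus strand), which encodes the inhibitor of the kinase, has a single transcript and a single promoter peak of 6736 bp. The peak lay mainly upstream, from 5434 bp before the TSS to 1301 bp after it, and was wider than 83.7% of promoter peaks. Its upstream part also overlapped the neighbouring gene Acbd4, but none of that gene's promoter windows. The peak covered 37.3% of Hexim1. Of 7 further peaks within 50 kb, 4 overlapped no promoter window. The promoter of the paralogue Hexim2 carried one of the other 3, a peak of 3291 bp that began 11.4 kb beyond the 3′ end of Hexim1.

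Larp7 (ENSMUSG00000027968.11, chr3:127536714-127553349, minus strand), which encodes the protein that binds the end of the 7SK RNA, had a pair of promoter peaks of 4417 and 4187 bp. The first ran from 2457 bp upstream to 1959 bp downstream of the reference TSS and also held the promoter of the neighbouring helicase gene Zgrf1, so that the mark cannot be assigned to either gene. The second lay from 5.00 to 9.19 kb downstream over exons 2 to 9, at the start of a transcript that retains an intron. It also covered the cluster of miR-302 and miR-367, 5 microRNA hairpins within 580 bp on the opposite strand (chr3:127545228-127545807) that are known for their expression in pluripotent cells. The hairpins began 1066 bp inside one edge of the peak and ended 2541 bp before the other.

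The mature sequences below, from RefSeq on GRCm38, are those of the cluster's 3p arms for which an entry was matched, with bases 2 to 8 in capitals, and are shown because they identify what the second Larp7 peak covers besides Larp7.
mmu-miR-302b-3p: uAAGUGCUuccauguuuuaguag
mmu-miR-302d-3p: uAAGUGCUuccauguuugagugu
mmu-miR-302c-3p: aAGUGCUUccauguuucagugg
mmu-miR-367-3p: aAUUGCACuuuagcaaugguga
The seed AAGUGCU is shared by miR-302b-3p and miR-302d-3p. The RefSeq entry of miR-302c-3p lacks the leading U of these sequences, so that its bases 2 to 8 read AGUGCUU, and the seed of miR-367-3p, AUUGCAC, is a different one. The list has no strand, and whether the second peak belongs to Larp7 or to the cluster cannot be told apart.

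Mepce (ENSMUSG00000029726.16, chr5:137781906-137787655, minus strand), which encodes the enzyme that caps the 7SK RNA, lay entirely within a single peak of 13016 bp that was wider than 93.7% of promoter peaks. The peak ran from 1044 bp upstream of the reference TSS to 11971 bp downstream, beyond the 3′ end of the gene. It also overlapped promoter windows of Ppp1r35 and Zcwpw1, although the gene Zcwpw1 itself lay outside the peak. Of the 13 promoter peaks of the members, 2, those of Larp7 and Mepce, also overlapped a promoter window of another protein-coding gene, against 14.7% of all peaks at protein-coding promoters. Outside the gene, 3 peaks lay 21.6, 29.3 and 39.0 kb downstream of Mepce, of which the nearest overlapped no promoter and the others those of Tsc22d4 and Nyap1. The gene of the 7SK RNA itself, Rn7sk, lay in a peak of 4149 bp.

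The scaffold genes of the SEC carried the widest peak and one of the narrowest among the members. Aff1 (ENSMUSG00000029313.18, chr5:103692374-103855322, plus strand), a gene of 163.0 kb and the longest of the set, had 3 promoter peaks and 1 in the gene body, which together covered 50.5% of it. The first promoter peak had 56119 bp and was wider than 99.8% of peaks at protein-coding promoters. It lay wholly upstream of the reference TSS, between 65470 and 9352 bp from it, and counted as a promoter peak only through a transcript with a retained intron that starts 61788 bp upstream of that TSS. The second, of 14822 bp, covered the TSS of all 3 protein-coding transcripts from 1170 bp upstream to 13651 bp downstream and was wider than 95.0%. The third, of 9109 bp, began 24.0 kb downstream around the start of another retained-intron transcript. In the gene body, a peak of 5997 bp lay 58.1 to 64.1 kb downstream over exons 5 and 6. No other gene's promoter lay in these 4 peaks.

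Aff4 (ENSMUSG00000049470.13, chr11:53350833-53421830, plus strand) had a single promoter peak of 1889 bp, narrower than most promoter peaks at the 41.1st percentile. It reached 501 bp upstream and 1387 bp downstream of the reference TSS, and the windows of the other 7 transcripts, which start at least 17240 bp further downstream, had no peak. The peak covered 1.95% of the gene. Its GC content, 63.9%, was higher than in the promoter peaks of all other members. Outside the gene Aff4 had 6 peaks within 50 kb, 3 of them at no promoter, 37.8 and 13.9 kb upstream and 3.15 kb downstream. The promoters of Hspa4, Zcchc10 and the pair Gdf9 and Uqcrq held the others, and 2 of these peaks were wider than the peak at Aff4 by several kb, with 11586 bp at Hspa4 and 9213 bp at Zcchc10.

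The ELL genes, whose products stimulate elongation by the polymerase, had single promoter peaks of 2638 and 1606 bp and smaller peaks within their introns. Ell (ENSMUSG00000070002.7, chr8:70539457-70592858, plus strand) had a promoter peak of 2638 bp that covered the TSS of both transcripts, from 1507 bp upstream to 1130 bp downstream of the reference TSS. Peaks of 1204 and 893 bp lay in introns 1 and 2. Within 50 kb outside Ell there were 7 peaks, of which 5 held promoters of other genes, among them a peak of 14125 bp at Ssbp4 and one of 25915 bp at Pgpep1. Peaks covered 32.4% of Ell and its 50 kb on each side, more than around 95.5% of protein-coding genes, although only 6.48% of Ell itself was covered.

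Ell2 (ENSMUSG00000001542.7, chr13:75706757-75772364, plus strand) had the narrowest promoter peak of the set, 1606 bp at the 28.8th percentile. It began 0.739 kb downstream of the reference TSS and covered the start sites of 5 other transcripts, 3 of them protein-coding. The RefSeq start of Ell2 lies 12 bp outside the peak. The antisense gene 1700037F03Rik overlaps the upstream end of Ell2 and lay in no peak. An intron 1 peak of 775 bp lay from 5.03 to 5.80 kb downstream of the reference TSS, and peaks covered 3.63% of the gene. All 3 peaks within 50 kb outside Ell2 overlapped no promoter, 20.1 kb upstream and 20.9 and 25.1 kb downstream.

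Paralogues differed in peak width. In the cyclin pair the peak at protein-coding start sites had 3468 bp at Ccnt1 and 13597 bp at Ccnt2, in the scaffold pair 14822 bp at Aff1 and 1889 bp at Aff4, in the ELL pair 2638 bp at Ell and 1606 bp at Ell2, and in the HEXIM pair 6736 bp at Hexim1 and 3291 bp at Hexim2. With 1 pooled list these differences have no error to be set against. The median width of the 13 member promoter peaks was 6736 bp, and 11 of the 13 were wider than the median of peaks at protein-coding promoters. This rests in part on 4 of the 13 that lie at no start of a protein-coding isoform, since with protein-coding isoforms only the median of the 9 remaining peaks was 4417 bp.

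**Figure D4:**
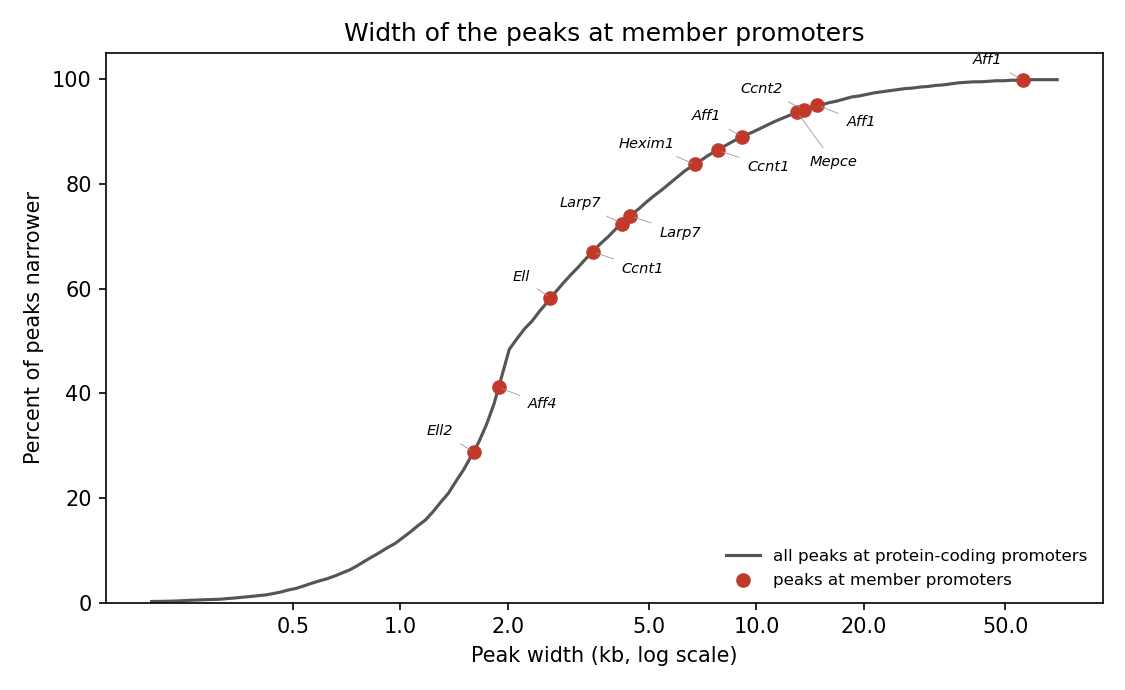
Width of the 13 peaks at member promoters (red points, x axis in kb on a log scale) on the cumulative distribution of all 10929 peaks at protein-coding promoters (line, percent of peaks narrower on the y axis). The points run from Ell2 at 1606 bp and the 28.8th percentile to the Aff1 peak of 56119 bp at the 99.8th, and 11 of 13 lie above the median of 2107 bp.

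In their surroundings, members had 1 to 7 peaks outside the gene within 50 kb, with a median of 3, against a median of 1 for protein-coding genes. Of the 35 such peaks, 20 overlapped a promoter window of another protein-coding or lincRNA gene and 15 did not. Peaks covered between 4.27% of the sequence around Cdk9 and 34.6% of that around Aff1, in each case the gene and its 50 kb on each side. The median over members was 15.4%, and all 10 lay above the protein-coding median of 3.91%, Cdk9 and Ell2 (5.60%) by the least. At the top stood Aff1, Ell, Mepce (22%) and Hexim1 (19.1%), followed by Ccnt1 (16.3%), Aff4 (14.6%), Ccnt2 (12.6%) and Larp7 (8.51%).

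The RefSeq windows of the members were searched on both strands for 4 promoter motifs, none of which contains another. The letters TATAAA, of the TATA box, were in none of the 10 member windows and in 12.6% of all windows of protein-coding genes, 5.93% of the marked and 19.3% of the unmarked. Variants were not counted, such as the TATATAA in the Hexim1 stretch printed above, which lies in the searched window. The count thus does not tell whether a member lacks a TATA box. CCAAT was in 5 member windows, those of Cdk9, Ccnt2, Hexim1, Larp7 and Ell2, and in 38.2% of all windows, 38.1% of the marked and 38.3% of the unmarked. GGGCGG, the GC box, was in 9 member windows, all but that of Aff4, and in 46.2% of all, 67.4% of the marked and 25% of the unmarked. CACGTG, an E-box, was only in the member window of Aff4 and in 7.84% of all, 10.7% of the marked and 4.98% of the unmarked.

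The CCAAT matches are given within 30 bases read from GRCm38 on the strand of the gene, with the match in capitals (ATTGG where it lies on the other strand), because the motif is found in the unmarked Cdk9 as in marked members. Positions relate to the RefSeq start. The match of Cdk9 lies from 229 to 225 bases upstream (chr2:32712996-32713025, minus strand), the first of Ell2's 3 matches from 229 to 225 bases upstream (chr13:75707243-75707272, plus), that of Larp7 from 62 to 58 (chr3:127553394-127553423, minus), the last of Ccnt2's 3 matches from 5 to 1 (chr1:127774147-127774176, plus) and that of Hexim1 from 243 to 239 (chr11:103116075-103116104, plus).
Cdk9 CCAAT: gcacggcccgggCCAATgcagcgggacgca
Ell2 CCAAT: aaatcggtccagCCAATcgccgcaggagag
Larp7 CCAAT: gttcgcaaaccaCCAATggaactccgcgtg
Ccnt2 CCAAT: gggcctcgacacATTGGcgcggagtcccgg
Hexim1 CCAAT: ttctatgATTGGctacgttgcacggcgcgc
A match of letters is no evidence of a bound factor, and binding was not measured.

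Related genes of transcription were marked nearly throughout. Of 39 such genes, 38 or 97.4% had a promoter peak, against the 51.9% of all protein-coding genes and 9 of 10 members. These 39 include the RNA gene Rn7sk, which is not protein-coding. The groups were 9 of 9 genes of other transcription kinases and their partner proteins, 8 of 8 regulators of P-TEFb, 3 of 3 genes of the little elongation complex, 12 of 12 genes of NELF, DSIF and the PAF complex, which pause the polymerase or travel with it, and 6 of 7 further SEC genes. The exception was Aff2, whose TSS lay 539.0 kb from the nearest peak, and its paralogue Aff3 was marked by a peak of 1421 bp at another isoform, the peak nearest to its reference TSS being 9.21 kb away. Ell3, the remaining ELL paralogue, had a peak of 11043 bp. The median width of a gene's widest promoter peak was 6736 bp for the members with a peak, 4119.5 bp for the regulators of P-TEFb, 2865 bp for the other kinases, 2108 bp for the further SEC genes, 1819 bp for NELF, DSIF and PAF, and 1564 bp for the little elongation complex. With protein-coding isoforms only, a comparison added once the data had been seen, the median was 4417 bp for the members and 4090 bp for the 7 regulators of P-TEFb with such an isoform, and the other 4 medians were the same as with all isoforms.

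**Figure D5:**
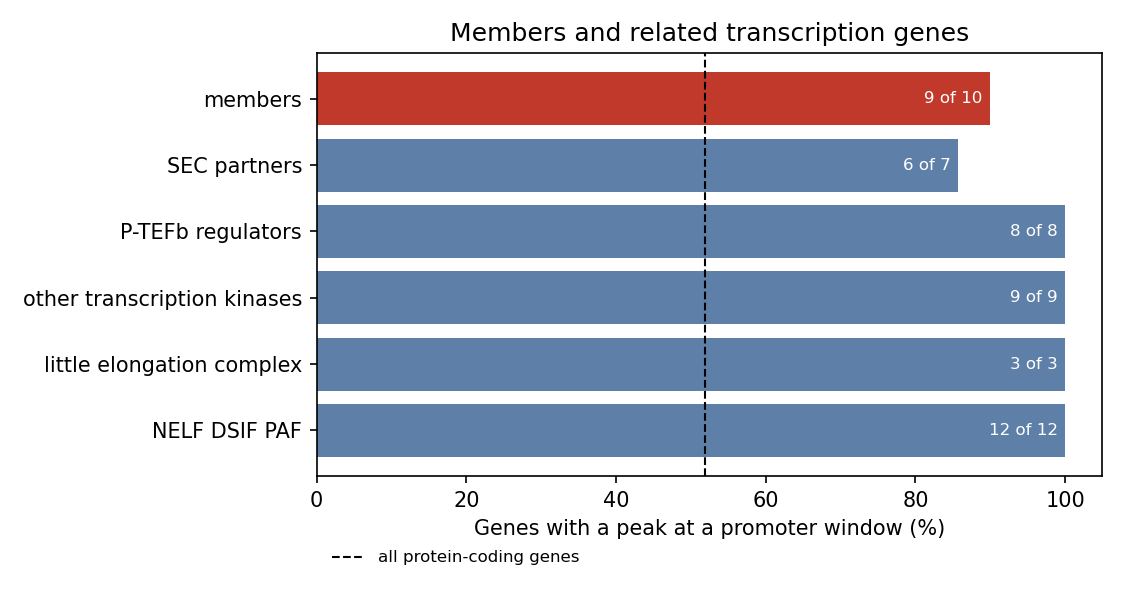
Share of genes with an H3K27ac peak at a promoter window in percent, for the members (red) and 5 groups of related genes (blue), with the number marked in each bar. The dashed line is the share over all protein-coding genes, 51.9%. All bars end to the right of the line, and only the members (9 of 10, without Cdk9) and the further SEC genes (6 of 7, without Aff2) are below 100%.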

How the data were processed

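H3K27ac ChIP-seq of mESCs was analysed from the list of control peaks deposited by the authors, whose values are peak starts and ends in base pairs of mm10, an annotation of positions with no count, height or score. Per the methods and the submitters' processing notes, the authors aligned reads to mouse and human sequence with bwa meme, used Picard 2.9.1 against duplicates and SAMtools 1.4 against reads of low mapping quality, called peaks by the neural network LanceOtron, merged close ones and filtered them by height and by distance to ATAC-seq summits, for both control replicates together. Peaks nearer than the merging distance thus count as 1, which widens them. Neither the order of the list nor the depth was used.

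Peaks were overlapped (at least 1 bp) with GENCODE M21 (GRCm38, the build of mm10) in Python 3.11.15 with pandas 2.3.3 and numpy 2.4.6. A promoter peak overlapped a window of ±1 kb around the TSS of any transcript of a gene, a body peak overlapped the gene but none of these windows, and the remaining peaks within 50 kb counted as outside. Sequences came from GRCm38.p6 and RefSeq. Percentiles refer to peaks at promoter windows of protein-coding genes. The members, gene lists and motifs were chosen with earlier results of these data known, so no test was made. Named are all members, up to 6 related genes, neighbours whose promoters lie in a member's peak or near Cdk9, and genes that overlap members. The functions were tested on simulated peaks. Alternatives were other windows, distances, isoforms, overlaps and peak widths.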

Additional observations from a re-analysis of the deposited data

How the results depend on the processing

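The number of members with a promoter peak was 9 under 6 of 7 alternatives and 8 with only the longest isoform of each gene, which left Ccnt1 unmarked, while the share of all protein-coding genes was 48.7% with the longest isoform and 46.6 to 52.7% over the alternatives, and Cdk9 had no promoter peak under any of the 7. Members with at least 2 promoter peaks fell from 3 to 0 with protein-coding isoforms only, where the share of all protein-coding genes fell from 5.24% to 2.73%. With the longest isoform only the count was 0 for every gene by construction, since 1 window cannot reach 2 peaks of this list. Protein-coding isoforms also moved the median width of member promoter peaks from 6736 to 4417 bp, because the additional peaks of Ccnt1, Larp7 and Aff1 lie at starts of other transcripts. Members with a peak in the gene body rose from 3 to 6 when peaks were placed by their midpoint, and to 5 when only the windows of the longest isoform were taken away, with shares of 21.1% and 22.2% against 17.4% of all protein-coding genes, since wide promoter peaks and those at other isoforms then count as body peaks, and with peaks of at least 1 kb the count was 2, against 15.5%. Members with a peak outside the gene numbered 9 within 25 kb, 10 within 100 kb and 7 with peaks at no promoter, against 53.1%, 79.1% and 41.8% of protein-coding genes. No paired analysis was possible because both control replicates are pooled in 1 list, and for the same reason no replicate could be left out. The list has no heights, so peaks could be ranked by width alone, and an unlisted promoter may still carry the mark.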
